A study of Mus musculus with 9 samples.

Results

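The 10 classical histone deacetylase genes Hdac1, Hdac2, Hdac3, Hdac4, Hdac5, Hdac6, Hdac7, Hdac8, Hdac10 and Hdac11 were examined in a table of raw RNA-seq read counts from mouse E14 embryonic stem cells. They were taken by name, as the family without Hdac9, and made up 10 of the 38293 genes of the table. The table covered 3 culture states with 3 libraries each, labelled as biological replicates. mESC-2i were kept in N2B27 with the MEK inhibitor PD0325901 at 1 µM, the GSK3 inhibitor CHIR99021 at 3 µM and mouse leukaemia inhibitory factor (mLIF) at 10 ng/mL. mESC-ser were kept on 0.1% gelatin in DMEM with 15% foetal bovine serum and the same 10 ng/mL of mLIF. EpiLC, epiblast-like cells, were derived from the naive mESC on fibronectin in N2B27 with activin A at 20 ng/mL, bFGF at 12 ng/mL and 1% KSR. All 9 libraries came from the E14 line of strain 129/Ola, so the replicates are cultures of a single line, and p-values measure only the spread between these samples. Library totals lay between 7187576 and 16829549 counts.

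Histone deacetylases are enzymes that remove acetyl groups from lysines of histones and other proteins, and the class I members Hdac1, Hdac2 and Hdac3 are also known to remove lactyl groups. Of the class I enzymes, Hdac1, Hdac2 and Hdac3 act in the nucleus within corepressor complexes. Class IIa enzymes (Hdac4, Hdac5, Hdac7) shuttle between nucleus and cytoplasm, class IIb enzymes (Hdac6, Hdac10) work largely in the cytoplasm, and Hdac11 is the sole member of class IV. In embryonic stem cells the Hdac1 and Hdac2 complexes are known for silencing and for allowing exit from the pluripotent state.

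The culture states carried the markers of their labels. The summed level of 6 naive pluripotency genes ran from 2214 to 2320 CPM (library-scaled counts, by TMM over the 9 libraries) for mESC-2i, from 1330 to 1376 for mESC-ser and from 86.5 to 97.6 for EpiLC. That of 4 formative epiblast genes ran from 71.8 to 82.5, from 597 to 712 and from 1631 to 1697 in the same order. Among the naive genes, Zfp42 averaged 297, 349 and 11.8 CPM, so not every naive gene was lower in mESC-ser than in mESC-2i. Of the general pluripotency genes, Pou5f1 averaged 882, 781 and 1006 CPM, whereas Sox2 averaged 473, 504 and 61.8 and so was low in EpiLC. Marker sums of other cell types also moved with the states, with 6 fibroblast genes at 41.8 to 49.3, 53.8 to 73.0 and 12.0 to 13.9 CPM, 5 primitive endoderm genes at 17.9 to 22.3, 30.8 to 32.3 and 6.65 to 8.63 CPM, and 4 trophectoderm genes at 35.0 to 40.0, 14.2 to 17.1 and 15.8 to 17.6 CPM. The fibroblast genes did not move together, with Col1a1 at 22.8, 49.1 and 1.48 CPM, Col3a1 at 12.1, 2.10 and 0.182 and Dcn at 0.475, 0.163 and 8.50. Of the fibroblast genes 1, 2 and 2 were at 3 counts or fewer in every library of the states in the same order, 1 of them at 0 throughout EpiLC. Of the primitive endoderm genes 1 was at this floor, in EpiLC, and of the trophectoderm genes 1 in each state, at 0 throughout EpiLC. The part of such cells in the levels below was not tested, and in these bulk samples fewer cells of a type and less RNA per cell cannot be told apart.

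All 10 deacetylase genes were detected in every library, with between 15 and 3054 counts, and all passed the filter on low counts in each of the 3 pairwise comparisons. A gene was called at an edgeR quasi-likelihood Benjamini-Hochberg adjusted p under 0.05 over all tested genes and an absolute log2 fold change over 0.5. Between mESC-ser and mESC-2i, 5 of the 10 were called, 1 higher and 4 lower in mESC-ser, against 56.2% of the 15728 genes tested (25.9% higher and 30.3% lower). Between EpiLC and mESC-2i, 5 of the 10 were called, 1 higher and 4 lower in EpiLC, against 69.8% of 15378 genes (32.0% higher and 37.8% lower). Between EpiLC and mESC-ser, 5 of the 10 were called, 3 higher and 2 lower in EpiLC, against 73.3% of 15345 genes (35.5% higher and 37.8% lower). With so few members, a count of 5 in 10 does not set the family apart from these background shares. The libraries of the compared states did not overlap in CPM for 8, 9 and 8 of the 10 genes, against 70.6%, 81.8% and 85.7% of all tested genes. With offsets for exonic length and GC content fitted per library, 5, 5 and 4 of the 10 were called, against 53.0%, 65.5% and 65.7% of all tested genes. The median log2 fold change of the 10 was -0.28, -0.35 and 0.0030 in the 3 comparisons, and that of all tested genes was -0.043, -0.11 and -0.068. The first and second comparisons share the mESC-2i libraries, and each state enters a pair of comparisons.

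By class, no class I gene was called between mESC-ser and mESC-2i, and of the 4 only Hdac8 was called in either EpiLC comparison. All 3 class IIa genes were called between mESC-ser and mESC-2i and again between EpiLC and mESC-2i, and 2 of 3 between EpiLC and mESC-ser. Hdac11 was called in every comparison. All tested genes were called at 56.2%, 69.8% and 73.3%, and the classes hold too few genes to be set apart from these shares. With length and GC offsets, Hdac2 was also called between mESC-ser and mESC-2i, beside 53.0% of all tested genes. Between EpiLC and mESC-ser, Hdac3 was then called and only 1 class IIa gene kept its call, beside 65.7% of all tested genes. With total counts in place of TMM scaling, the median of all genes shifted to -0.45 and -0.41 in the EpiLC comparisons, and the members called became 0 higher and 7 lower against mESC-2i and 1 higher and 4 lower against mESC-ser. Of all tested genes, this scaling called 24.1% higher and 47.4% lower against mESC-2i, and 28.0% higher and 46.9% lower against mESC-ser.

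**Figure D1:**
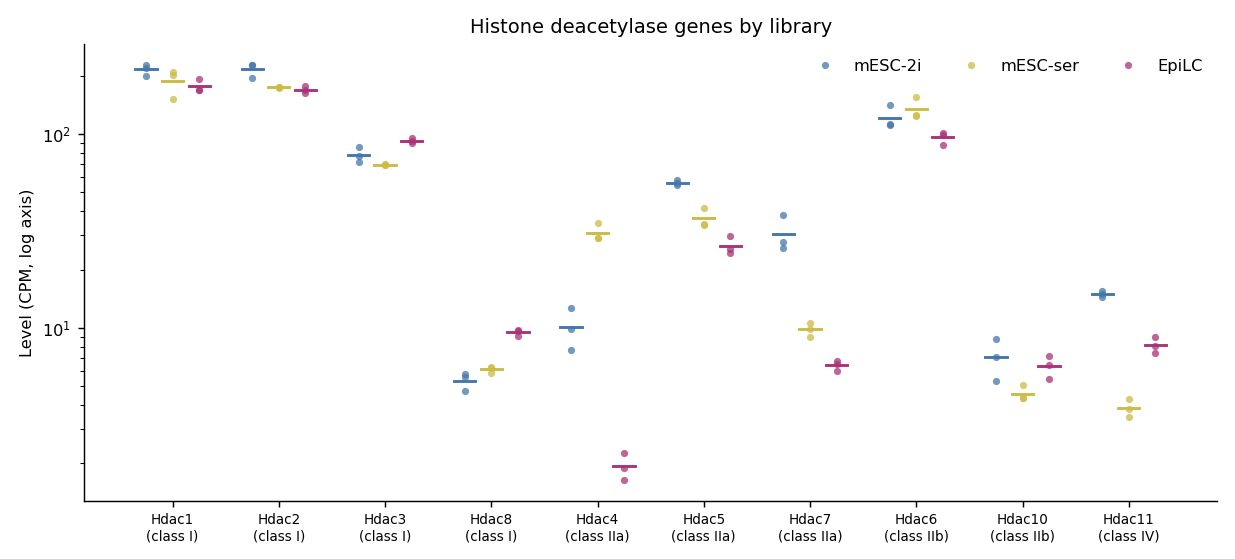
Level of each deacetylase gene in CPM on a log axis, by library; points are the 3 libraries of a state and the short line is their mean. Hdac4 spans 1.93 to 31.0 CPM between the state means, while Hdac1, Hdac2 and Hdac3 stay within 1.33-fold.

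Hdac1 and Hdac2, the paired class I enzymes of the Sin3, NuRD, CoREST and MiDAC complexes, were the most abundant deacetylase transcripts of the cells. Their state means of TMM-scaled log2 CPM had the smallest ranges of the 10 members, at 0.29 and 0.35. Hdac1 (ENSMUSG00000028800, chr4:129516104-129542713, minus strand, mm10) stood at 220, 228 and 199 CPM for mESC-2i, 202, 209 and 151 for mESC-ser, and 169, 168 and 193 for EpiLC. The low mESC-ser value belonged to replicate 3, and mESC-ser overlapped both other states, whereas EpiLC lay below mESC-2i in all libraries. Its log2 fold change was -0.23 (SE 0.14, adjusted p = 0.170) for mESC-ser against mESC-2i, -0.29 (SE 0.097, adjusted p = 0.0180) for EpiLC against mESC-2i and -0.017 (SE 0.11, adjusted p = 0.893) for EpiLC against mESC-ser, none of them called.

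Hdac2 (ENSMUSG00000019777, chr10:36974544-37001889, plus strand) was at 227, 227 and 196 CPM for mESC-2i, 176, 173 and 176 for mESC-ser, and 168, 163 and 177 for EpiLC. mESC-2i lay above both other states, which overlapped each other. The differences were -0.33 (SE 0.099, adjusted p = 0.0122) and -0.36 (SE 0.094, adjusted p = 0.00497) against mESC-2i, short of the fold threshold, and 0.023 (SE 0.075, adjusted p = 0.784) between EpiLC and mESC-ser. With length and GC offsets, Hdac2 passed both thresholds between mESC-ser and mESC-2i, at -0.53 (SE 0.080). Between EpiLC and mESC-ser it was then at 0.46 (SE 0.059, quasi-likelihood adjusted p = 5.94e-06), under the fold threshold.

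The promoter of Hdac2 is shown for comparison with those of the members that moved most. RefSeq windows of the GRCm38.p6 build ran from 250 bases before to 50 after a transcription start. Hdac1 and Hdac10 had no such window, and Hdac3 was left out of the search. That left 10 windows, from 7 of the 10 members (Hdac2, Hdac4, Hdac5, Hdac6, Hdac7, Hdac8 and Hdac11). Each was searched on both strands for the GC box, read as GGGCGG, and for the CCAAT box, read by the letters of its name. Of the member windows, 6 of 10 held a GC box and 5 of 10 a CCAAT box, against 35.6% and 37.4% of all 32817 windows; neither motif overlapped the other, but the pair of CCAAT matches in the Hdac8 window share bases. Only stretches outside every annotated exon are printed, 5′ to 3′ on the strand of the gene, with matches in capitals. The Hdac2 window held 36 CpG dinucleotides, above 93.8% of all windows, whose median was 7, and its exon-free stretch at chr10:36974294-36974543 on the plus strand contained 1 GC box.
Hdac2: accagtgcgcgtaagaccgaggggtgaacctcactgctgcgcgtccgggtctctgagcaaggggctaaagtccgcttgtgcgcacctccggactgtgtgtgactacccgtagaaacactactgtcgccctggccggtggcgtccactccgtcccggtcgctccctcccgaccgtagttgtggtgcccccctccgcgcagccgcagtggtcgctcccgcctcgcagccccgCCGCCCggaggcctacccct

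Hdac1 has a near-identical copy, which bears on its count. The processed pseudogene Gm10093 (chr17:78491582-78493025, plus strand) aligned to the Hdac1 transcript over 1444 bases at 99.4% identity and was itself given between 1140 and 1855 counts per library. How the counting treated reads with several alignments was not stated, so reads of either gene may have been split or lost. Gm10093 had 0.657 ± 0.015 counts per Hdac1 count for mESC-2i, 0.651 ± 0.029 for mESC-ser, and 1.08 ± 0.057 for EpiLC (SD, n = 3), so the ratio of EpiLC stood apart from the others in all 3 libraries. Gm10093 rose between mESC-ser and EpiLC by a log2 fold change of 0.71 (SE 0.097, adjusted p = 3.35e-06) and showed 0.42 against mESC-2i (SE 0.094, adjusted p = 0.00192), under the fold threshold.

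Adding the Gm10093 counts to Hdac1, an alternative chosen after the data were seen, moved the EpiLC differences of Hdac1 to 0.034 (SE 0.096, adjusted p = 0.757) against mESC-2i and 0.32 (SE 0.10, adjusted p = 0.0106) against mESC-ser, and left mESC-ser against mESC-2i at -0.23. The sign of both EpiLC differences of Hdac1 therefore depends on where these reads are assigned. Another copy of 96.3% identity over 1450 bases, AC125456.1, was not analysed here.

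**Figure D2:**
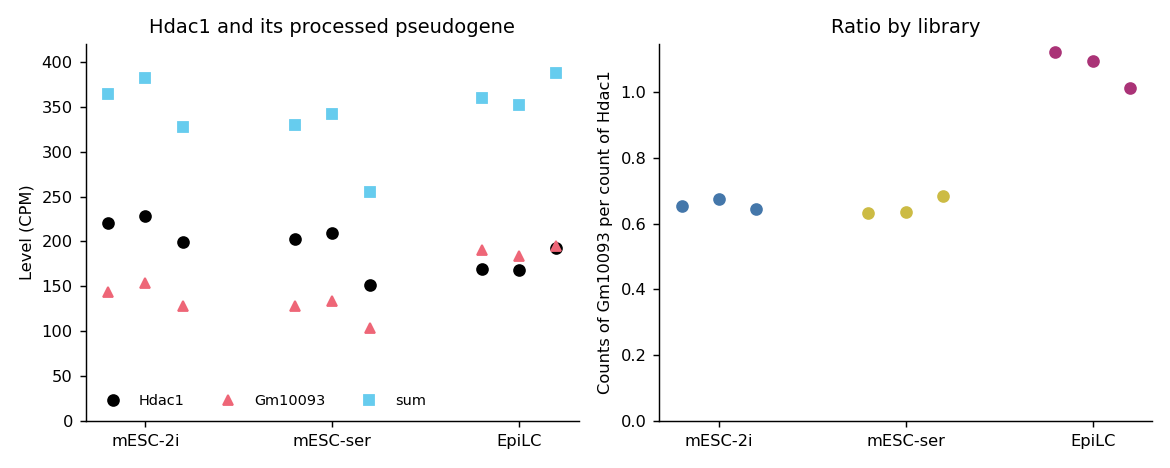
Left, levels of Hdac1, of its processed pseudogene Gm10093 and of their sum in CPM by library, in replicate order 1 to 3 from left to right within a state; right, counts of Gm10093 per count of Hdac1. The ratio is 0.632 to 0.684 in the 6 mESC libraries and 1.01 to 1.12 in the 3 EpiLC libraries.

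Hdac3, the enzyme of the NCoR/SMRT corepressor complex (ENSMUSG00000024454), was highest in EpiLC. It stood at 77.1, 86.2 and 72.0 CPM for mESC-2i, 70.0, 69.2 and 69.1 for mESC-ser, and 95.3, 92.4 and 90.02 for EpiLC, and the states did not overlap. EpiLC exceeded mESC-ser by 0.49 on the log2 scale (SE 0.078, adjusted p = 2.14e-05), just under the fold threshold, and mESC-2i by 0.24 (SE 0.095, adjusted p = 0.0389), while mESC-ser differed from mESC-2i by -0.20 (SE 0.10, adjusted p = 0.103). The difference between EpiLC and mESC-ser passed the fold threshold with length and GC offsets (0.66), with RLE scaling (0.51) and without EpiLC replicate 3 (0.51). With total-count scaling the difference from mESC-2i was -0.10.

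Hdac8, a class I enzyme known for deacetylating the cohesin subunit Smc3 (ENSMUSG00000067567, chrX:102284639-102505359, minus strand), was scarce, with 44 to 108 counts per library. It was at 5.55, 5.76 and 4.71 CPM for mESC-2i, 5.85, 6.24 and 6.22 for mESC-ser, and 9.06, 9.61 and 9.79 for EpiLC. Every EpiLC library lay above every mESC library. Hdac8 rose in EpiLC by 0.83 against mESC-2i (SE 0.16, adjusted p = 0.000618) and by 0.71 against mESC-ser (SE 0.14, adjusted p = 0.000201), and showed 0.17 between mESC-ser and mESC-2i (SE 0.16, adjusted p = 0.361). With total-count scaling the EpiLC differences fell under the fold threshold, to 0.49 and 0.37, and with length and GC offsets they were 1.09 and 1.18.

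Hdac4, a class IIa enzyme that binds MEF2 factors and represses their targets (ENSMUSG00000026313, chr1:91928779-92195699, minus strand), had the widest range of all members. It was at 9.84, 7.68 and 12.7 CPM for mESC-2i, 29.2, 29.1 and 34.6 for mESC-ser, and 2.26, 1.64 and 1.88 for EpiLC. The 3 states did not overlap, and the state means differed 16.1-fold between mESC-ser and EpiLC.

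Hdac4 rose in mESC-ser against mESC-2i by 1.59 (SE 0.18, adjusted p = 2.43e-05) and fell in EpiLC against both, at -2.39 for mESC-2i (SE 0.26, adjusted p = 8.99e-06) and -3.94 for mESC-ser (SE 0.16, adjusted p = 1.20e-12). The EpiLC value rests on 15 to 17 counts per library. Hdac4 has the longest exonic length of the members, 15813 bases, and with length and GC offsets the differences were smaller but still called, at 1.18, -1.62 and -2.80. Its exons overlap those of the antisense RNA Gm26720 over 3536 bases, 22.4% of the exonic length, and Gm26720 was given 0 to 2 counts per library. The strand setting of the counting was not stated, so reads of the pair could not be told apart by strand.

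The RefSeq window of Hdac4 lies within the gene as GENCODE draws it and is printed because this gene had the widest range. It held 32 CpG dinucleotides, above 90.5% of all windows, and its exon-free stretch at chr1:92180342-92180591 on the minus strand contained 4 GC boxes and 2 CCAAT boxes. The exon-free stretch of Hdac6, a member not called in any TMM fit, also contained 4 GC boxes and 2 CCAAT boxes.
Hdac4: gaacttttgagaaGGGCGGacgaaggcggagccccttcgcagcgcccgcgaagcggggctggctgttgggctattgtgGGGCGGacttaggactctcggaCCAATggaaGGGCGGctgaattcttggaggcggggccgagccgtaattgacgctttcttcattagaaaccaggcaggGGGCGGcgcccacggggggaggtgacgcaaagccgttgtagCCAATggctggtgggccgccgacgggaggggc

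Hdac7 and Hdac5 fell in both other states against mESC-2i. Hdac7, a class IIa enzyme known from thymocytes and blood vessel cells (ENSMUSG00000022475, chr15:97792664-97844502, minus strand), was at 27.8, 25.7 and 38.3 CPM for mESC-2i, 9.85, 8.99 and 10.6 for mESC-ser, and 5.995, 6.77 and 6.53 for EpiLC. The states did not overlap, and the highest mESC-2i value was that of replicate 3, which was also highest for Hdac4 and Hdac10. Hdac7 fell by 1.66 in mESC-ser (SE 0.17, adjusted p = 1.31e-05) and by 2.25 in EpiLC (SE 0.18, adjusted p = 1.13e-06) against mESC-2i. Between EpiLC and mESC-ser it fell by 0.54 (SE 0.14, adjusted p = 0.00245), a call that was lost with length and GC offsets (-0.32), without mESC-ser replicate 3 (-0.49) and without EpiLC replicate 1 (-0.49).

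The RefSeq table gives several start sites for Hdac7, and both printed stretches hold neither motif. The outermost, at chr15:97844503-97844752 on the minus strand, lies in a window with 6 CpG dinucleotides. That at chr15:97831768-97832017 on the same strand lies in a window with 35, above 93% of all windows. Another Hdac7 window, at chr15:97831446-97831745, held 31 CpG dinucleotides and 1 GC box but has no exon-free stretch to print. Counts per gene do not show which start was used.
Hdac7, outermost start: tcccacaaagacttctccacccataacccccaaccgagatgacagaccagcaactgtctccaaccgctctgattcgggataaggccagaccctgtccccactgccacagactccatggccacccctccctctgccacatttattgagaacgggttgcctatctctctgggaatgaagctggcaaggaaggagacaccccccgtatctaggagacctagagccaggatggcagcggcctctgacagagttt
Hdac7, internal start: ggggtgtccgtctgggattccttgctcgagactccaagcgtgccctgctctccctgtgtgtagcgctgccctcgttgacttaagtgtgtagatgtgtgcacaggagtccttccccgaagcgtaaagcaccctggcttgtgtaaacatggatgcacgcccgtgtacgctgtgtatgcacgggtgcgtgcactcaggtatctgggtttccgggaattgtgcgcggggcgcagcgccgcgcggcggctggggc

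Hdac5, a class IIa enzyme regulated by nuclear export in muscle and nerve cells (ENSMUSG00000008855, chr11:102194432-102230166, minus strand), was at 54.4, 57.7 and 56.2 CPM for mESC-2i, 34.6, 33.9 and 41.7 for mESC-ser, and 25.4, 29.8 and 24.2 for EpiLC, again without overlap. It fell by 0.64 in mESC-ser (SE 0.11, adjusted p = 0.000467) and by 1.08 in EpiLC (SE 0.11, adjusted p = 5.31e-06) against mESC-2i. Between EpiLC and mESC-ser it showed -0.40 (SE 0.11, adjusted p = 0.00280), under the fold threshold, and 0.080 with length and GC offsets. Hdac9, the other class IIa gene and not among the 10, had only 2 to 18 counts per library. It was not tested against mESC-2i and was 1.10 higher in EpiLC than in mESC-ser (SE 0.38, adjusted p = 0.0133).

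Hdac6 and Hdac10 are the class IIb members, a cytoplasmic deacetylase of tubulin and a polyamine deacetylase. Hdac6 (ENSMUSG00000031161, chrX:7930120-7947889, minus strand) was abundant, at 111, 113 and 141 CPM for mESC-2i, 125, 124 and 155 for mESC-ser, and 87.9, 102 and 99.4 for EpiLC. EpiLC lay below both mESC states, which overlapped, and replicate 3 was the highest of each mESC state. No Hdac6 difference was called, with 0.12 (SE 0.13, adjusted p = 0.427) for mESC-ser against mESC-2i, -0.34 (SE 0.11, adjusted p = 0.0192) for EpiLC against mESC-2i and -0.41 (SE 0.094, adjusted p = 0.000697) for EpiLC against mESC-ser. With length and GC offsets the EpiLC differences were 0.016 and -0.14, and with total-count scaling they were called, at -0.68 and -0.75.

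Hdac10 (ENSMUSG00000062906, chr15:89123307-89128700, minus strand), with 50 to 111 counts per library, was at 7.07, 5.34 and 8.71 CPM for mESC-2i, 4.34, 4.33 and 5.06 for mESC-ser, and 7.19, 5.46 and 6.40 for EpiLC. mESC-ser lay below both other states, which overlapped. Hdac10 fell by 0.64 in mESC-ser against mESC-2i (SE 0.20, adjusted p = 0.0170), rose by 0.53 in EpiLC against mESC-ser (SE 0.17, adjusted p = 0.00941) and showed -0.16 in EpiLC against mESC-2i (SE 0.21, adjusted p = 0.510). Both calls were lost with length and GC offsets (-0.42 and 0.19). The first was also lost without mESC-2i replicate 3 (-0.42) and without mESC-ser replicate 1 (-0.58) or 2 (-0.57). The second was also lost without mESC-ser replicate 1 (0.48) or 2 (0.49) and without EpiLC replicate 1 (0.44).

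Hdac11, the class IV enzyme, known as a remover of fatty acyl groups (ENSMUSG00000034245, chr6:91156665-91174692, plus strand), was highest in mESC-2i, intermediate in EpiLC and lowest in mESC-ser. It stood at 14.5, 15.5 and 15.0 CPM for mESC-2i, 4.27, 3.83 and 3.45 for mESC-ser, and 8.93, 8.08 and 7.41 for EpiLC, with no overlap between states. Hdac11 fell by 1.99 in mESC-ser (SE 0.15, adjusted p = 1.59e-06) and by 0.89 in EpiLC (SE 0.14, adjusted p = 0.000145) against mESC-2i, and rose by 1.15 in EpiLC against mESC-ser (SE 0.17, adjusted p = 7.46e-06). Length and GC offsets kept all 3 calls, at -1.84, -0.98 and 0.89. Its exons overlap the antisense gene Gm14573 over 96 bases, which had 0 counts, and Gm44002 over 594 bases, which was not analysed here.

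The stretch before Hdac11 is printed because this gene changed in all 3 comparisons. It lies at chr6:91156565-91156664 on the plus strand, in a window with 22 CpG dinucleotides, above 76.9% of all windows, and contained 1 GC box.
Hdac11: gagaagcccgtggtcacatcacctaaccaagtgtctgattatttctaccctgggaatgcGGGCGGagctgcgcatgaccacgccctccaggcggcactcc

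**Figure D3:**
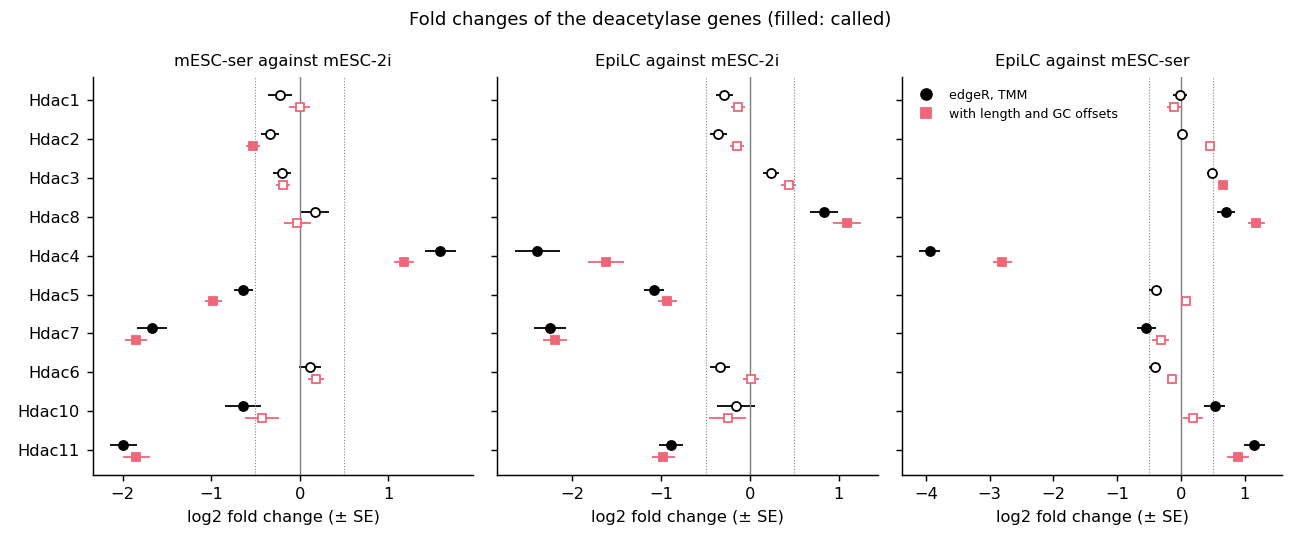
Log2 fold changes with SE for each deacetylase gene in the 3 comparisons, from the TMM fit (circles) and from the fit with length and GC offsets (squares); filled symbols were called and dotted lines mark the fold threshold of 0.5. Between mESC-ser and mESC-2i, Hdac4, Hdac7 and Hdac11 lie farthest from 0. In the TMM fit, Hdac5 (-1.08) lies farther from 0 than Hdac11 (-0.89) in EpiLC against mESC-2i. Hdac8 (0.71) lies farther than Hdac7 (-0.54) in EpiLC against mESC-ser, and Hdac4 runs from 1.59 to -3.94.

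Levels of different genes were compared per length, as RPKM over the exonic length of each gene. The summed level of the 10 genes was 170 ± 5.86 RPKM for mESC-2i, 145 ± 5.20 for mESC-ser, and 139 ± 5.09 for EpiLC (SD, n = 3). Class I genes made up 77.3 ± 3.39% of it for mESC-2i, 77.1 ± 3.53% for mESC-ser and 82.2 ± 1.00% for EpiLC. Class IIa genes made up 6.82 ± 0.910%, 5.25 ± 0.757% and 2.96 ± 0.331%, class IIb genes 13.6 ± 2.41%, 16.96 ± 2.81% and 13.3 ± 0.704%, and Hdac11 2.29 ± 0.0858%, 0.689 ± 0.0554% and 1.53 ± 0.190% in the same order. The class IIa share of EpiLC thus lay below that of both mESC states in every library. These shares carry no length and GC offsets. With such offsets, Hdac5 (0.080) and Hdac7 (-0.32) were not called in EpiLC against mESC-ser, whereas Hdac4 (-2.80) was. Gm10093 counts were not added to Hdac1 in the RPKM levels and shares. Hdac1 averaged 216, 188 and 177 CPM in mESC-2i, mESC-ser and EpiLC without those counts, and 358, 309 and 367 CPM with them. The sums, the shares, and the ratio and rank of Hdac1 given below therefore depend on where these reads are assigned.

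Within class I, Hdac1 exceeded Hdac2 per length in each of the 9 libraries, by a ratio of 1.29 ± 0.031 for mESC-2i, 1.39 ± 0.240 for mESC-ser, and 1.35 ± 0.055 for EpiLC. The spread in mESC-ser came from replicate 3, at 1.12. The ratio leaves out the Gm10093 counts, which were higher per Hdac1 count in EpiLC than in both mESC states. Hdac3 took 11.4 ± 0.670%, 11.8 ± 0.393% and 16.5 ± 1.01% of the summed level in mESC-2i, mESC-ser and EpiLC. Within class IIa, Hdac5 was the most abundant in each state, at 55.6 ± 5.48%, 55.0 ± 0.728% and 73.7 ± 1.83% of the level of the class. Hdac7 followed in mESC-2i (38.9 ± 4.65%) and EpiLC (23.3 ± 1.57%), whereas in mESC-ser Hdac4 (25.8 ± 0.364%) stood above Hdac7 (19.2 ± 0.842%). Hdac4 made up 5.47 ± 0.910% in mESC-2i and 3.01 ± 0.676% in EpiLC.

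Ranked by RPKM among 21250 protein-coding genes, Hdac1 stood at percentile 97.1, 96.4 and 94.5 in mESC-2i, mESC-ser and EpiLC, and Hdac2 at 96.0, 94.4 and 92.8. Hdac6 and Hdac3 lay between 86.2 and 90.1. Hdac4 stood at 46.0, 56.6 and 37.1 in the same order and Hdac8 at 50.3, 52.4 and 60.2, and the remaining members lay between 50.3 and 72.9.

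**Figure D4:**
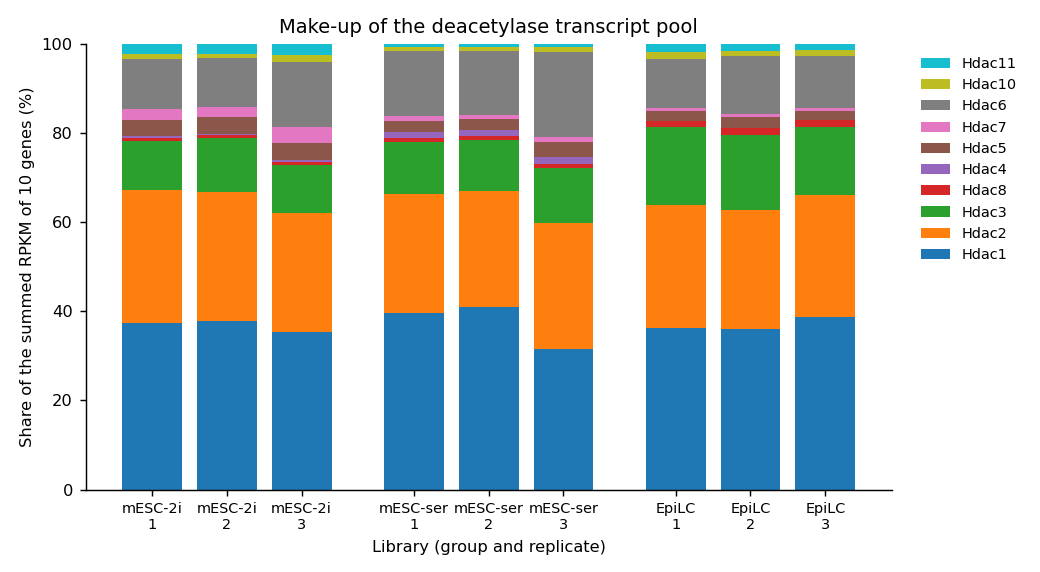
Share of each gene in the summed RPKM of the 10 deacetylase genes, in percent, stacked by library for the 3 states. Hdac1 and Hdac2 fill most of each bar, and the class IIa shares (Hdac4, Hdac5, Hdac7) add up to 2.66 to 3.31% in EpiLC against 4.74 to 7.86% in the mESC libraries. The shares carry no length and GC offsets.

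For the 3 members with the widest range of state means, the genes of most similar pattern were sought by Pearson correlation of log2 CPM over the 9 libraries, among 9407 genes. The 9 points fall into 3 states, so a high correlation says little beyond the order and spacing of the states. Closest to Hdac4 were Ttc39b, Tmtc3 and Ttc37 (each r = 0.999), and Ttc39b averaged 77.6, 181 and 24.4 CPM in mESC-2i, mESC-ser and EpiLC. Closest to Hdac7 were Inpp5d (0.998), Jak3 (0.996) and Pcdhgc4 (0.995), with Jak3 at 118, 21.7 and 9.75 CPM. Closest to Hdac11 were Insig1 (0.994), Dok1 (0.993) and Npc2 (0.993), with Insig1, a regulator of sterol synthesis, at 166, 36.4 and 80.6 CPM.

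The partners of the deacetylases were read from 9 lists with 68 genes. Of those tested, 33 of 65 were called between mESC-ser and mESC-2i (26 higher, 7 lower), 36 of 66 between EpiLC and mESC-2i (14 higher, 22 lower) and 46 of 66 between EpiLC and mESC-ser (13 higher, 33 lower), beside the 56.2%, 69.8% and 73.3% of all genes. Their median log2 fold changes were 0.37, -0.18 and -0.52. With length and GC offsets the calls were 25 higher and 9 lower, 19 higher and 16 lower, and 14 higher and 19 lower, and with total-count scaling the EpiLC comparisons gave 8 higher and 33 lower, and 10 higher and 46 lower.

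Among the class I complexes, 8 of 10 NuRD genes were called between mESC-ser and mESC-2i, with 6 higher. Of all tested genes, 56.2% were called there and 25.9% were higher. The scaffold gene Gatad2b rose by 2.49 in mESC-ser against mESC-2i and fell by 4.37 in EpiLC against mESC-ser (-3.20 with length and GC offsets). The remodelling ATPase Chd4 rose by 1.39 in mESC-ser, and its relative Chd3 stood lower there (-0.62) and in EpiLC against mESC-2i (-3.24). Cdk2ap1 (2.60) and Mbd3 (1.86, and 1.27 with offsets) rose in EpiLC against mESC-2i. Of the 15 Sin3 genes, 7, 10 and 12 were called in the 3 comparisons, beside 56.2%, 69.8% and 73.3% of all tested genes. Sap18 (1.90) and Ing2 (1.43) were higher and Arid4a (-2.04) and Sap30 (-1.10) lower in EpiLC against mESC-2i. Sinhcaf (1.20) and Arid4b (1.14) rose and Sap30l (-0.85) fell in mESC-ser, and the call of Arid4b was lost with length and GC offsets (0.28).

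Of the 9 CoREST genes, 5 were higher and 2 lower in mESC-ser against mESC-2i, beside 25.9% and 30.3% of all tested genes. In EpiLC against mESC-ser, 1 was higher and 7 lower, beside 35.5% and 37.8% of all tested genes. With length and GC offsets 1 was higher and 3 lower there, beside 65.7% of all tested genes called. Phf21a (1.74) and Zmym3 (1.16) rose and the scaffold gene Rcor3 (-1.31, and -2.02 with offsets) and Hmg20b (-0.93) fell in mESC-ser, while its relative Rcor1 fell by 2.84 in EpiLC against mESC-ser. In the MiDAC list the scaffold gene Mideas rose by 0.76 in mESC-ser and fell by 1.54 in EpiLC against mESC-2i. The other MiDAC genes Trerf1 and Dnttip1 stood at 1.03 (called) and -0.47 (not called) in mESC-ser against mESC-2i. For Hdac3, the corepressor gene Ncor1 rose by 1.42 in mESC-ser and fell by 2.45 in EpiLC against mESC-ser, and Gps2 fell by 0.63 and rose by 1.31. With length and GC offsets Ncor1 was at 0.93 and -1.29 and Gps2 at -0.34, no longer called, and 0.52. Of the histone chaperone genes, Rbbp7 was not called and Rbbp4 was called at 0.50 in EpiLC against mESC-ser, whereas with length and GC offsets Rbbp4 was called in all 3 comparisons, at -0.64, 0.79 and 1.48.

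Class IIa enzymes are exported from the nucleus after phosphorylation, which lets 14-3-3 proteins bind them. Of the 13 kinase genes, 12 were tested between mESC-ser and mESC-2i, with 3 higher and 1 lower, beside 25.9% and 30.3% of all tested genes. All 13 were tested in the EpiLC comparisons. Against mESC-2i, 2 were higher and 4 lower, beside 32.0% and 37.8% of all tested genes. Against mESC-ser, 2 were higher and 8 lower, beside 35.5% and 37.8%. With length and GC offsets the kinase calls turned to 4 higher and 2 lower and to 5 higher and 3 lower in the EpiLC comparisons. All tested genes were then called at 65.5% and 65.7%. The median of the kinase list between EpiLC and mESC-ser moved from -0.58 to -0.0059. Sik2 (1.18) rose and Camk1d (-0.90) fell in mESC-ser, and Camk1d (-2.32) and Sik1 (-1.75) fell while Prkd1 (1.69) and Camk4 (1.31) rose in EpiLC against mESC-2i. Prkd1 and Camk4 were scarce, at 0.914 ± 0.565 and 1.03 ± 0.531 CPM in mESC-2i (SD, n = 3). The Camk4 libraries of EpiLC and mESC-2i overlapped. Of the 7 genes of 14-3-3 proteins, 2 were called between mESC-ser and mESC-2i, Sfn at 1.69 and Ywhaq at 0.60, beside 56.2% of all tested genes. Of the MEF2 genes, Mef2b and Mef2c were not tested, Mef2d was not called, and Mef2a was lower in EpiLC, at -1.66 against mESC-2i and -1.62 against mESC-ser, which were -0.94 and -0.11 with length and GC offsets, the latter not called.

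**Figure D5:**
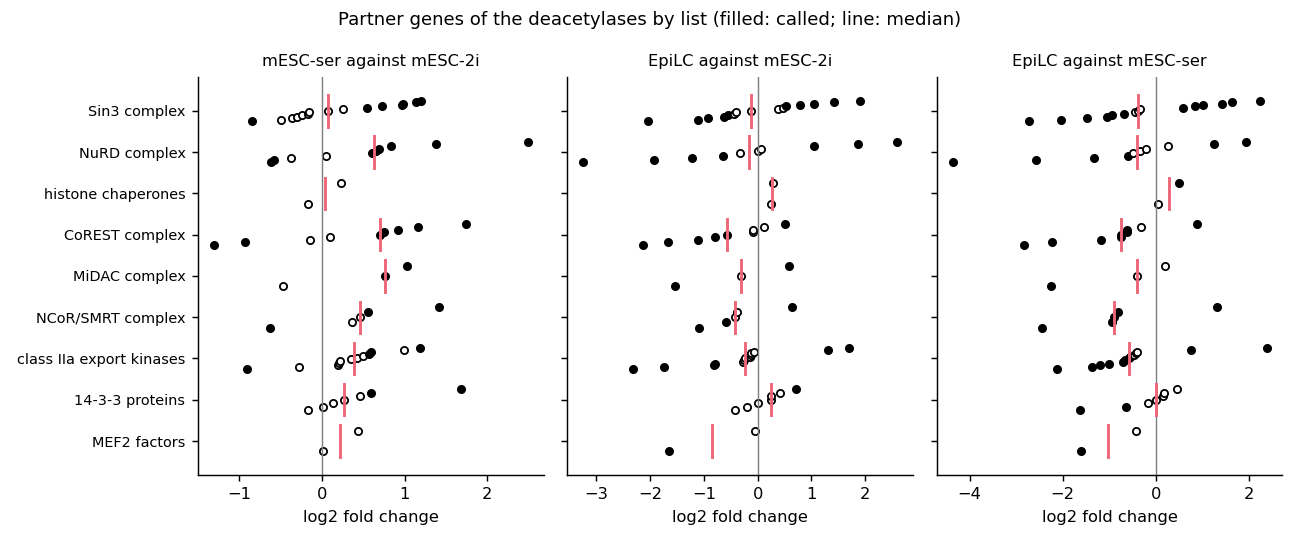
Log2 fold changes of the partner genes of the deacetylases by list in the 3 comparisons; each point is a tested gene, filled where called, and the vertical line is the median of the list. Between mESC-ser and mESC-2i, medians of the Sin3, NuRD, CoREST, MiDAC, NCoR/SMRT, export kinase and MEF2 lists lie above 0. In both EpiLC comparisons the medians of these lists lie below 0. With length and GC offsets, the export kinase and MEF2 medians fall below 0 between mESC-ser and mESC-2i (-0.0097 and -0.17). The NuRD and export kinase medians then lie above 0 in EpiLC against mESC-2i (0.078 and 0.16). With length and GC offsets the NCoR/SMRT medians move from 0.46, -0.42 and -0.90 to 0.14, -0.073 and -0.052.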

How the data were processed

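RNA-seq of E14 cells was deposited as counts: per the submitters' processing notes and the methods, the authors trimmed single-end reads with Trim Galore 0.6.6, aligned them to mm10 with HISAT2 2.2.1 and made raw counts per gene with featureCounts (Subread 2.0.1). The annotation release, the strand setting and the handling of reads with several alignments are not given in the sources used here. Symbols and exonic lengths came from GENCODE M21, which matched 36429 of 38293 identifiers. For each pair of states a separate fit was made in edgeR 4.0.16 (limma 3.58.1, R 4.3.3) using filterByExpr, TMM and the quasi-likelihood F-test, tested on simulated data; each SE was derived from the fold change and its F statistic. Levels in CPM were scaled by TMM over all 9 libraries. DESeq2 1.42.0, other scalings and filters, and natural-spline offsets (5 degrees of freedom each) for exonic length and GC content were alternatives. Near-identical transcripts were sought with BLAST 2.17.0. A floor of 3 counts covers counting error only.

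The members and lists were chosen with earlier results of these data known. Named partner genes were drawn from the called genes with the largest absolute log2 fold change in each list, up to 2 higher and 2 lower per comparison, together with the genes of the smallest lists. Replicate numbers were taken to pair mESC-ser with mESC-2i libraries, since deviations of same-numbered libraries correlated at 0.141, 0.195 and 0.359. Libraries with different numbers correlated at -0.293 to 0.157. The highest of these, mESC-ser 1 with mESC-2i 2, lay above the lowest same-numbered value, so the pairing is not settled. Same-numbered EpiLC libraries correlated at 0.0153, 0.132 and 0.122 with mESC-2i, where different numbers reached 0.0106. With mESC-ser they correlated at 0.0124, 0.0177 and 0.036, where different numbers reached 0.025. The TMM fits reported above left the pairing out.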

Additional observations from a re-analysis of the deposited data

How the results depend on the processing

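Of 453 member fold changes under alternatives, 408 kept their direction and side of the threshold, 18 lost and 9 gained a call with the same sign, and 18 changed sign, none of them called in the TMM fit. The replicate block, with the paired numbers, again called 5 members in each comparison and changed the call of none. Between mESC-ser and mESC-2i it moved the quasi-likelihood adjusted p of Hdac1 from 0.170 to 0.0234 and of Hdac3 from 0.103 to 0.0466. Both differences stayed under the fold threshold. Without a fold threshold 6, 9 and 8 members were called in the 3 comparisons, beside 66.3%, 78.9% and 84.2% of all tested genes. With a fold threshold of 1, 3, 3 and 2 members and 11, 21 and 25 partner genes were called, beside 31.4%, 48.5% and 51.9% of all genes (4935, 7455 and 7957 genes). Leaving out single libraries gave 4 to 5, 5 to 5 and 3 to 6 members, the 3 without EpiLC replicate 1. The class I share was 68.2%, 66.5% and 75.5% without division by length, and 84.6% in EpiLC with the longest transcript as length.

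Sign changes were, with offsets, Hdac8 at -0.026 (mESC-ser against mESC-2i), Hdac6 at 0.016 (EpiLC against mESC-2i) and Hdac5 at 0.080 (EpiLC against mESC-ser). With total counts Hdac3 was at -0.10 against mESC-2i and Hdac2 at -0.32 against mESC-ser. Hdac1 with Gm10093 was at 0.034 and 0.32 in the EpiLC comparisons. In EpiLC against mESC-ser, Hdac1 was at 0.010 with RLE scaling and -0.16 to 0.069 without single libraries, and Hdac2 at -0.0015 with upper-quartile scaling, -0.063 with no filter, -0.050 with at least 10 counts per library, -0.047 in a fit of all 9 libraries and -0.0029 to 0.062 without single libraries. Hdac10 was at -0.29 to 0.058 in EpiLC against mESC-2i without single libraries, positive only without mESC-2i replicate 3. The cause was not tested. The call of Hdac10 in EpiLC against mESC-ser was also lost with total counts (0.19), no filter (0.44), at least 10 counts per library (0.45), DESeq2 (0.52) and all 9 libraries (0.46). The 15 to 17 counts of Hdac4 in EpiLC limit its fold change.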
